A study of Mus musculus with 4 samples.

Results

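The mitochondrial ribosomal protein genes are the protein-coding mouse genes whose symbols begin with Mrpl or Mrps followed by a digit, with pseudogenes left out. Of 27357 gene IDs measured, 77 met this rule, 48 with Mrpl symbols (large subunit) and 29 with Mrps symbols (small subunit). The annotation holds 78 such genes, and the remaining one, Mrpl53, was not analysed here.

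The mitochondrial ribosome translates the few messages of the mitochondrial genome, which encode membrane subunits of the respiratory chain and of ATP synthase. Its RNAs are transcribed in the organelle, while all of its proteins are encoded in the nucleus, made in the cytosol and imported. Many of these proteins have a counterpart in bacterial ribosomes, and others are found only in mitochondria. In Leydig cells, which lie between the seminiferous tubules of the testis and make androgens, steroid synthesis begins in mitochondria with the cleavage of cholesterol.

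Leydig cells were taken from the testes of male mice of 2 genotypes, wild type (WT) and C2orf74 knockout (KO), and their RNA was sequenced in 2 libraries each. Mice of both genotypes received a high-fat diet from 8 weeks of age for 12 weeks, so no library represents standard chow. The labels do not say how the knockout was made, how the cells were purified, or whether the libraries of a genotype came from separate animals. A p-value here thus reflects how far the libraries of a genotype lay apart, a spread that could be technical.

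The values in the tables were read as RPKM (read counts scaled to gene length and library depth). The steps between values give 13847804 and 15817091 reads in the WT libraries and 15694387 and 19764002 reads in the KO libraries. The Pearson correlation of log2 values over 12391 genes was 0.989 between the WT libraries, 0.981 between the KO libraries and 0.979 to 0.983 across genotypes. The targeted gene, annotated in the mouse as 1700093K21Rik, was listed at 0 in WT replicate 1 and in both KO libraries and at 0.126 RPKM in WT replicate 2, so it gave no check of the labels. The Leydig cell genes Insl3, Star, Cyp11a1, Hsd3b1, Lhcgr and Nr5a1 were all detected, with a summed level of 1145 and 983 RPKM in WT and 1039 and 985 RPKM in KO. Within that sum 3 genes were higher and 3 lower in KO. The 2 genes with the smallest p-values in the test of KO against WT described below were Insl3 and Hsd3b1. Insl3 had 164 and 133 RPKM in WT and 73.0 and 81.5 RPKM in KO. Hsd3b1 had 323 and 261 RPKM in WT and 410 and 449 RPKM in KO. Neither overlapped between genotypes, which is largely set by that choice.

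The 77 genes lie on 17 chromosomes, with 11 of them on chromosome 11 and 8 on chromosome 17. Many start close to a neighbour on the opposite strand. In 32 of 77 (41.6%) the 5′ end of another protein-coding gene lay there within 1000 bases, against 2234 of 17567 protein-coding genes in the tables (12.7%). That wider share covers genes of every level, including many too low to test, while all 77 genes were detected. It was not taken over detected genes alone. Only the distance between 5′ ends was measured, so pairs whose exons overlap are counted too. Whether the genes of a pair share a promoter was not tested. In one pair both genes are mitoribosomal, since Mrps11 and Mrpl46 start 412 bases apart. Other neighbours also serve mitochondria. Mrps12 starts 172 bases from Sars2, the mitochondrial seryl-tRNA synthetase, Mrpl43 starts 779 bases from Twnk, the mitochondrial DNA helicase, and Mrpl36 starts 29 bases from Ndufs6, a subunit of complex I.

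Promoter sequences from RefSeq (mouse assembly GRCm38.p6), covering 250 bases before to 50 bases after the start, were at hand for 68 of the 77 genes. They were searched on both strands for 3 short words. These were GCATGCGC, the core of the site bound by NRF1, CCGGAAG, a site of ETS factors such as GABP, and AAGATGGC, the site of YY1. All are transcription factors known to act at nuclear genes for mitochondrial proteins. The NRF1 word was present in 8 of 68 genes (11.8%) against 662 of 13518 genes with a window (4.90%). The ETS word was present in 25 of 68 (36.8%) against 15.9%, and the YY1 word in 12 of 68 (17.6%) against 4.24%. At least one of the words was present in 37 of 68 (54.4%) against 22.8% of all genes. Matches can share letters, since the ETS word ends in the AAG with which the YY1 word begins and the YY1 word ends in the GC with which the NRF1 word begins. A match is a description and not evidence of binding, and the share in all promoters covers genes of every level. The windows of 4 members are shown, since they hold different sets of these words, which are in capitals. Their KO against WT differences are among the larger ones of their subunit, but are small and did not pass the test described below. A link between the words and the differences was not tested.

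The Mrpl22 window (chr11:58171414-58171713, plus strand) holds the ETS word 53 bases before the start and the complement of the NRF1 word 33 bases before it. The Mrps12 window (chr7:28741772-28742071, minus strand) holds the complement of the YY1 word 199 bases before the start, and the ETS word from base 2 after it. The Mrps21 window (chr3:95871465-95871764, minus strand) holds the complement of the ETS word from base 19 after the start. The Mrpl12 window (chr11:120484387-120484686, plus strand) holds none of the words, and thus has no capitals.
Mrpl22: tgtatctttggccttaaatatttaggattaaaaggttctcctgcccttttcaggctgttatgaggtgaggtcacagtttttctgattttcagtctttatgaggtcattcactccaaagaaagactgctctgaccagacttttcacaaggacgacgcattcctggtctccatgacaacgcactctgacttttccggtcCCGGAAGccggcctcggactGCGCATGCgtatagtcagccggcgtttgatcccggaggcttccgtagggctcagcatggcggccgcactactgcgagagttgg
Mrps12: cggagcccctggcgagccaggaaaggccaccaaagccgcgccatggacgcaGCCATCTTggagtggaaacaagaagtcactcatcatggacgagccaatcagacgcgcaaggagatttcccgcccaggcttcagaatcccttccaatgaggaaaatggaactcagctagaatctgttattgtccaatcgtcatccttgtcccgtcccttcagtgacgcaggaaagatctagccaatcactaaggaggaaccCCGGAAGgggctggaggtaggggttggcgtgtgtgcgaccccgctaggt
Mrps21: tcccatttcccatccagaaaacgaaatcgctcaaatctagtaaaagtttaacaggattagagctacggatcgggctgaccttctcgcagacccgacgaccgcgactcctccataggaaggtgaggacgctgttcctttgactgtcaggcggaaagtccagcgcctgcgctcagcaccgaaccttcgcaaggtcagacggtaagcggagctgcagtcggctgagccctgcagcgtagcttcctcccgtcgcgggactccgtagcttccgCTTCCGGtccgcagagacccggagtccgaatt
Mrpl12: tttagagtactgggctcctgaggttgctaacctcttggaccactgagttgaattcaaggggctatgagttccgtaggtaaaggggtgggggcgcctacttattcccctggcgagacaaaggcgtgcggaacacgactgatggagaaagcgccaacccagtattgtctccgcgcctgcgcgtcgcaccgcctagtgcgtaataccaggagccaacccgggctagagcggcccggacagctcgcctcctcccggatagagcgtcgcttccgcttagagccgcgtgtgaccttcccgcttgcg

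All 77 genes were at 1 RPKM or more in all 4 libraries. The mean over libraries ran from 1.502 RPKM for Mrps18c to 49.1 RPKM for Mrpl34, a range of 32.7-fold, with a median of 9.88 RPKM. Of the 77 genes 19 lay under 5 RPKM, 38 between 5 and 20, and 20 at 20 or more. The median was 10.5 RPKM for Mrpl and 6.77 RPKM for Mrps symbols. The median gene was covered by 444 reads per library, and the lowest single value was 18 reads, for Mrps18c in WT replicate 1. The plot of levels in each library orders the genes of each subunit by their mean.

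**Figure D1:**
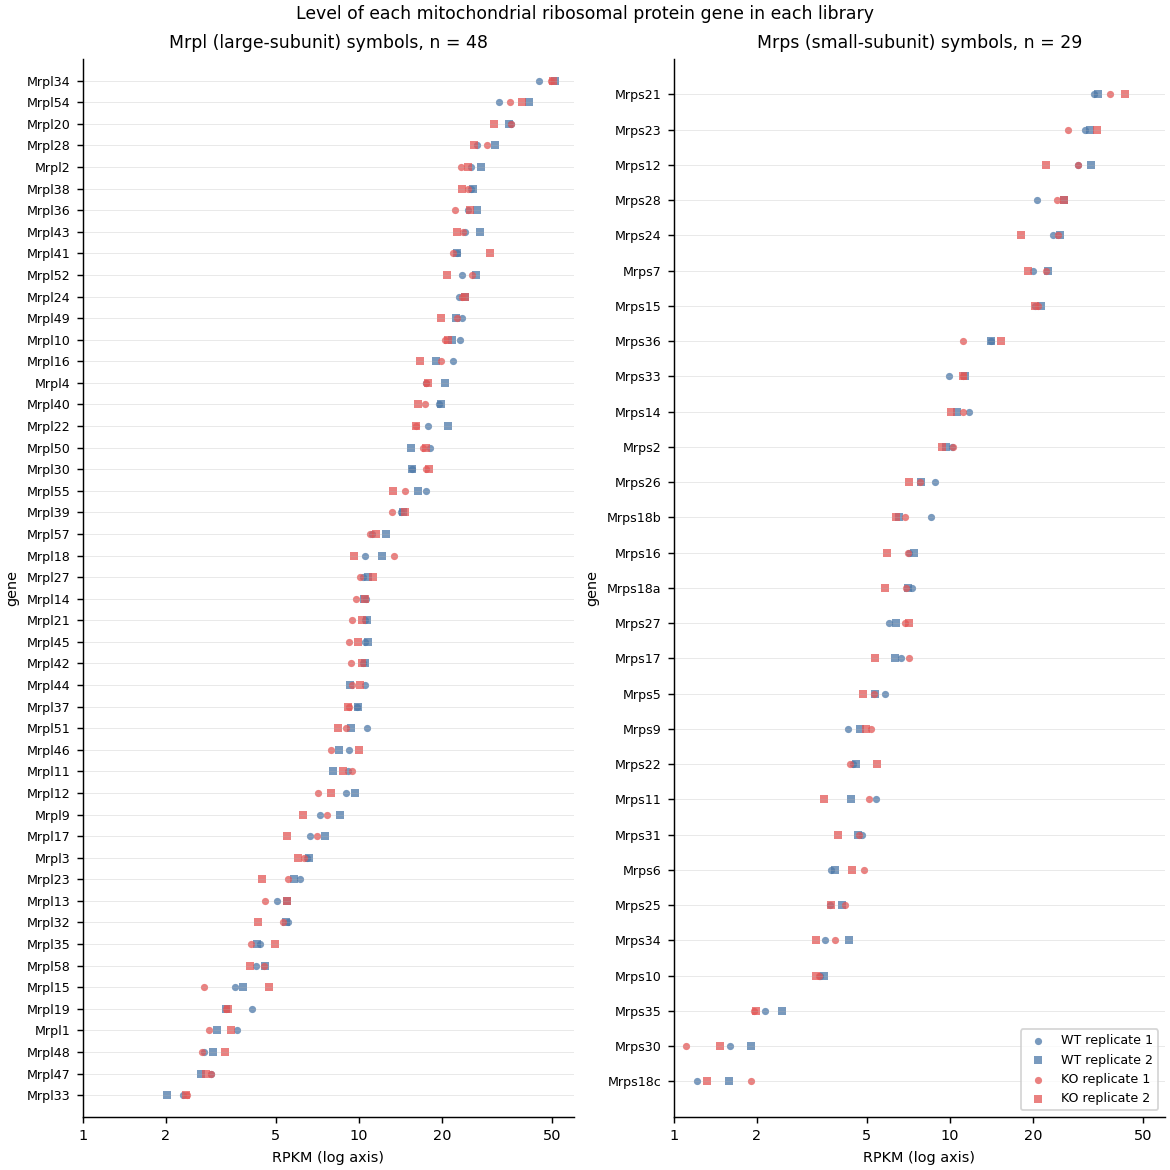
Level of each gene in each library in RPKM on a log axis, with Mrpl symbols on the left and Mrps symbols on the right, ordered by the mean of the 4 libraries. Blue marks are WT and red marks KO, circles replicate 1 and squares replicate 2. The differences between genes, from 1.502 to 49.1 RPKM on average, are far wider than those between the libraries of one gene.

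The most abundant large-subunit gene was Mrpl34, a counterpart of bacterial L34, with 45.0 and 51.3 RPKM in WT and 49.5 and 50.4 RPKM in KO. Mrpl54, a protein of the mitochondrial large subunit alone, had 32.2 and 41.2 RPKM in WT and 35.1 and 38.9 RPKM in KO. Mrpl20, the counterpart of a bacterial assembly protein, had 35.5 and 34.9 RPKM in WT and 35.5 and 30.9 RPKM in KO. In each of these genes the genotypes overlapped. Mrpl28 had 26.7 and 31.0 RPKM in WT and 29.0 and 26.1 RPKM in KO, again with overlap. In the small subunit Mrps21, Mrps23, Mrps12 and Mrps28 stood highest. Mrps23 had 30.9 and 32.3 RPKM in WT and 26.7 and 34.2 RPKM in KO, so that the KO libraries lay on either side of both WT libraries. Mrps28, which carries an S1-type RNA-binding domain, had 20.8 and 25.8 RPKM in WT and 24.4 and 25.8 RPKM in KO, with overlap.

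At the low end of the large subunit stood Mrpl33, Mrpl47 and Mrpl48. Mrpl47, the counterpart of bacterial L29 at the exit of the peptide tunnel, had 2.91 and 2.68 RPKM in WT and 2.91 and 2.78 RPKM in KO. Mrpl48, of the central protuberance, had 2.74 and 2.95 RPKM in WT and 2.70 and 3.26 RPKM in KO. The genotypes overlapped in both. Mrpl33 had 2.31 and 2.02 RPKM in WT and 2.38 and 2.36 RPKM in KO. Both KO libraries lay above the higher WT library by less than the gap between the WT libraries.

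The order of these levels rests in part on the length used to scale them. Among the 77 genes Spearman's rho between RPKM and summed exonic length was -0.72, against 0.00 over the 12383 tested genes with a length, while rho between recovered reads and length was 0.16 among the 77. The points share the 4 libraries, and length is itself the divisor of RPKM. In 20 genes the summed exons were over 2 times as long as the principal transcript. When reads were instead divided by the length of that transcript, which assumes that all reads came from it, the range was 2.53 to 74.5 RPKM, the median 15.7, and Mrpl20 stood highest. Mrpl33 moved from rank 74 of 77 (2.27 RPKM, 7326 exonic bases) to rank 16 (34.8 RPKM, a transcript of 478 bases). Mrpl23 moved from rank 55 to rank 11, Mrpl13 from 57 to 18 and Mrps10 from 70 to 25. Mrps18c was the lowest on both scales, and the median of the Mrpl symbols (17.5 RPKM) stayed above that of the Mrps symbols (13.7 RPKM). In a comparison of KO with WT the length cancels in the ratio of RPKM, but not on the log2(RPKM + 1) scale used for the test, where the added 1 weighs more on genes whose long exons lower their RPKM.

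**Figure D2:**
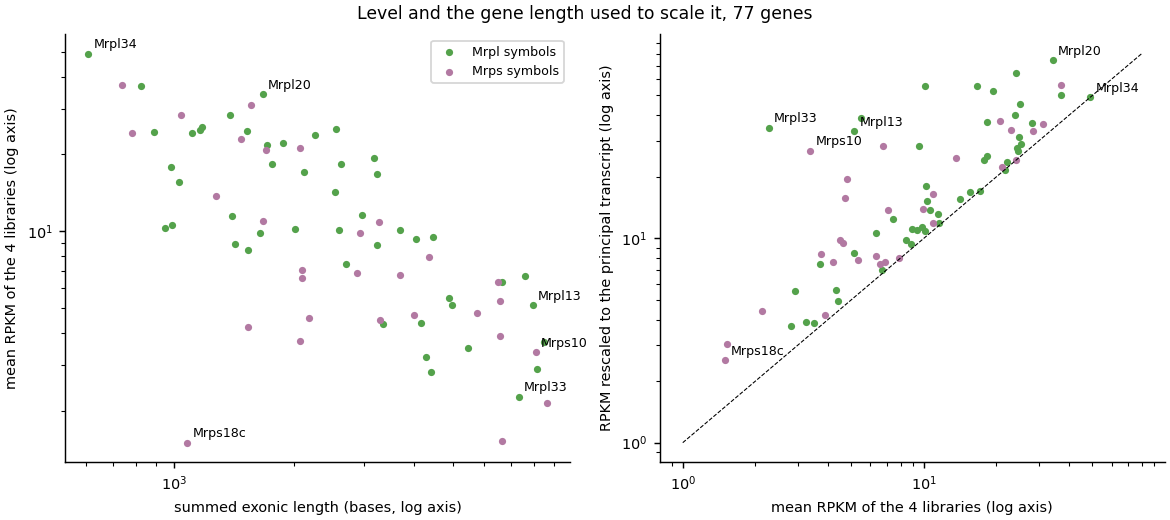
Left, mean RPKM of the 4 libraries against the summed exonic length in bases; right, the level rescaled to the principal transcript against mean RPKM, with the line of equality dashed; all axes are log axes, and each point is 1 of 77 genes. Longer summed exons go with lower RPKM, and genes far above the line, such as Mrpl33 at 2.27 and 34.8 RPKM, are those whose exons sum to much more than one transcript.

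The comparison of KO with WT asks whether loss of C2orf74 on a high-fat diet went with a different output of these genes in Leydig cells. None of the 77 genes passed the test, and the differences were small: most members lay slightly lower in KO, and all lay within 0.3 of WT on the log2(RPKM + 1) scale. With a pseudocount of 0.1 Mrpl12 and Mrps30 lay beyond that limit, at -0.31 and -0.42, as they did with voom on recovered reads, at -0.31 and -0.43. With 1 library left out, between 2 and 8 genes lay beyond it. At an FDR of 0.05 limma called 0 of 77, where 0 of all 12391 genes tested were called (0.00%). The adjusted p-values of the 77 genes in limma ran from 0.377 to 0.988. At an unadjusted p under 0.05, 1 gene was higher (Mrps21), beside 4.33% of all genes, and 3 were lower (Mrpl12, Mrpl55 and Mrpl40), beside 7.42% of all genes. Both counts are below the share of all genes. They moved with the libraries used, as did those of all genes. Without KO replicate 1 there were 2 higher and 10 lower members, beside 6.59% and 12.0% of all genes. Without KO replicate 2 there were 1 and 4, beside 6.19% and 9.43%. Without WT replicate 1 there were 0 and 1, beside 2.17% and 2.68%, and without WT replicate 2 there were 0 and 0, beside 2.45% and 3.47%. Both KO libraries lay above both WT libraries in 6 genes, where 19.7% of all genes did so, and below them in 24 genes, where 25.0% did. Some of the members named below were picked for a large difference or a small p-value. A lack of overlap in those members is largely set by that choice.

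By direction 23 genes were higher and 54 lower in KO (70.1% lower, against 53.8% of all genes tested). The median log2 difference was -0.07, against -0.02 over all genes tested, and single genes ran from -0.28 for Mrpl12 to 0.25 for Mrps21. The differences were narrowly spread: 68 of 77 lay under 0.2 in size (88.3%), beside 72.1% of all genes. All 77 lay under 0.3, beside 85.6%. This was not particular to the 77 genes. Nuclear subunits of the respiratory chain and ATP synthase lay under 0.2 in 90% of 80 tested, and cytosolic ribosomal protein genes in 93.7% of 79. The genes tested as a whole also had a lower median level, 6.81 RPKM. The standard deviation of the differences was 0.12 among the 77 and 0.26 over all genes. The median coefficient of variation over the 4 libraries was 8.71% among the 77 genes and 10.3% over all genes. Log2 values of low genes are held toward 0 by the added 1. Across the 77 genes the signed difference did not follow the level (Spearman's rho -0.04, over the same 4 libraries). That rho ranks signed differences, in which rises and falls can cancel, so it cannot show the pull of the added 1.

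**Figure D3:**
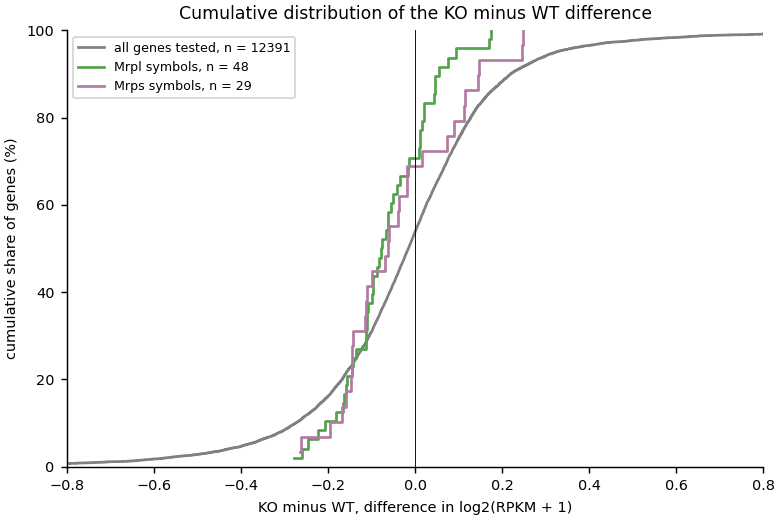
Cumulative share of genes in percent against the KO minus WT difference in log2(RPKM + 1), for 48 Mrpl symbols, 29 Mrps symbols and all 12391 genes tested; each curve of members starts at its lowest gene. The 2 subunit curves are steeper than that of all genes and lie to its left around 0, with medians of -0.08 and -0.06 against -0.02.

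The Mrpl symbols had 14 genes higher and 34 lower (median log2 difference -0.08), and the Mrps symbols 9 higher and 20 lower (median -0.06). Summed over the members, the Mrpl symbols held 695 and 725 RPKM in WT and 677.5 RPKM in both KO libraries. The Mrps symbols held 313 and 327 RPKM in WT and 318 and 309 RPKM in KO. Mrps18a, Mrps30 and Mrps36 are not small-subunit proteins, as described below. With these genes left out, the Mrps sums were 290 and 304 RPKM in WT and 299 and 286 RPKM in KO. The Mrpl sums of both KO libraries lay below the lower WT sum by less than the gap between the WT libraries. The Mrps sums overlapped between genotypes, with or without the genes left out. The 48 members with a bacterial counterpart and the 29 found only in mitochondria had medians of -0.07 and -0.08. In bulk RNA, less RNA per cell and a smaller share of the cells that carry it cannot be told apart.

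The stalk recruits translation factors to the large subunit. Mrpl12, the stalk protein itself (chr11:120484613-120489065, plus strand, GRCm38), had 8.96 and 9.70 RPKM in WT and 7.11 and 7.93 RPKM in KO. Both KO libraries lay below both WT libraries, and the difference was the most negative of the 77 genes on this scale (log2 -0.28 ± 0.09 SE, unadjusted p = 0.031, adjusted p = 0.377 in limma). By the plain ratio of RPKM Mrps30 was lower (KO over WT 0.738, against 0.806 for Mrpl12). Mrpl10, which anchors Mrpl12, had 23.3 and 21.7 RPKM in WT and 20.4 and 21.03 RPKM in KO, also without overlap (log2 -0.11 ± 0.08 SE). Mrpl11, at the base of the stalk, had 9.10 and 8.03 RPKM in WT and 9.42 and 8.73 RPKM in KO, with overlap (log2 0.08 ± 0.10 SE). The fitted differences of the 3 stalk genes thus had no common sign, though that of Mrpl11 was smaller than its SE.

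Proteins that line the peptidyl transferase region and the exit tunnel come next. Mrpl3 had 6.49 and 6.61 RPKM in WT and 6.32 and 6.001 RPKM in KO (log2 -0.08 ± 0.08 SE). Mrpl4 had 17.4 and 20.5 RPKM in WT and 17.5 and 17.8 RPKM in KO (log2 -0.10 ± 0.10 SE). The genotypes did not overlap in Mrpl3 and overlapped in Mrpl4. Mrpl22, a tunnel protein whose promoter is shown above, had 17.7 and 21.01 RPKM in WT and 16.1 RPKM in both KO libraries. The KO values were lower than both WT values and nearly equal to each other (log2 -0.25 ± 0.10 SE, adjusted p = 0.447 in limma). Mrpl23, at the tunnel exit, had 6.14 and 5.80 RPKM in WT and 5.55 and 4.45 RPKM in KO (log2 -0.22 ± 0.12 SE). Mrpl45, which holds the ribosome to the inner membrane, had 10.5 and 10.8 RPKM in WT and 9.20 and 9.94 RPKM in KO (log2 -0.14 ± 0.08 SE). In both genes the KO libraries were below the WT libraries, in Mrpl23 mostly through KO replicate 2.

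Mrpl40 and Mrpl55 belong to the upper part of the large subunit around the central protuberance. Mrpl40 (chr16:18872018-18876862, minus strand) had 19.5 and 19.9 RPKM in WT and 17.4 and 16.4 RPKM in KO (log2 -0.21 ± 0.08 SE, unadjusted p = 0.045, adjusted p = 0.415 in limma). Mrpl55, the counterpart of bacterial L31 (chr11:59202486-59206134, plus strand), had 17.5 and 16.4 RPKM in WT and 14.7 and 13.3 RPKM in KO (log2 -0.26 ± 0.09 SE, unadjusted p = 0.034, adjusted p = 0.386 in limma). Both genes were lower in each KO library than in either WT library, which is largely set by their choice for small p-values. Of the large-subunit genes with higher values, Mrpl30 had 15.6 RPKM in both WT libraries and 17.5 and 18.0 RPKM in KO (log2 0.17 ± 0.07 SE, adjusted p = 0.454 in limma). Mrpl41 had 22.6 and 22.7 RPKM in WT and 21.9 and 29.9 RPKM in KO (log2 0.17 ± 0.15 SE). Mrpl30 was higher in both KO libraries, whereas in Mrpl41 KO replicate 2 alone was high and KO replicate 1 was the lowest of the 4 libraries.

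A pair of large-subunit proteins have folds of enzymes. Mrpl58, a peptidyl-tRNA hydrolase that can release stalled ribosomes, had 4.25 and 4.55 RPKM in WT and 4.51 and 4.04 RPKM in KO (log2 -0.03 ± 0.10 SE). Mrpl44, with a domain like that of ribonuclease III, had 10.5 and 9.31 RPKM in WT and 9.46 and 10.1 RPKM in KO (log2 -0.02 ± 0.10 SE). The genotypes overlapped in both.

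**Figure D4:**
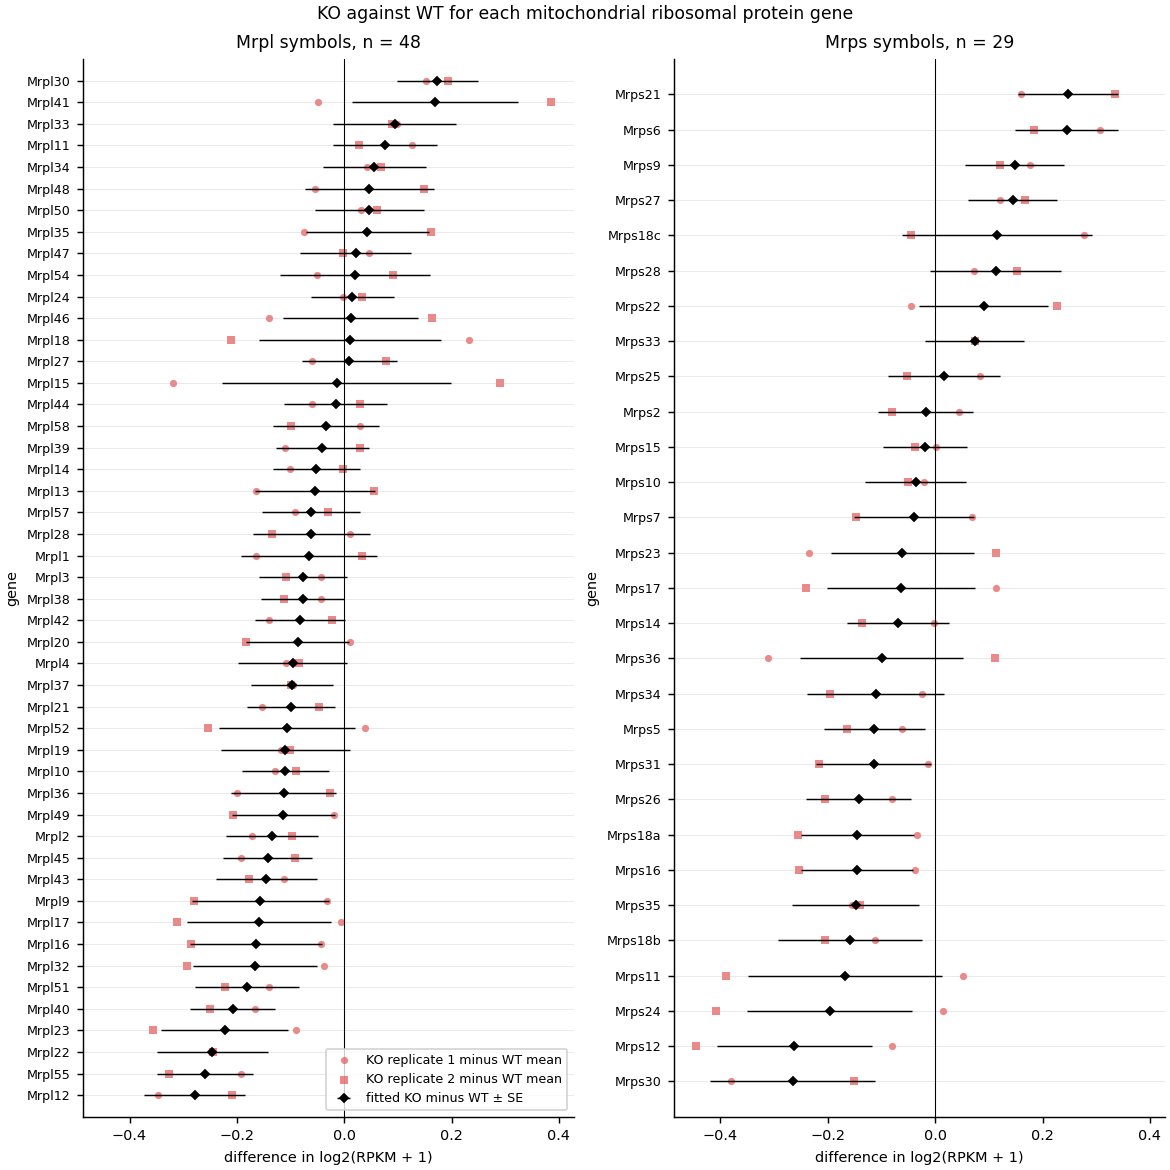
Difference in log2(RPKM + 1) for each gene: black diamonds with bars are the fitted KO minus WT difference with its SE, the red circle is KO replicate 1 and the red square KO replicate 2, each minus the WT mean. Fitted values run from -0.28 to 0.25, and in 48 of 77 genes (62.3%) both KO libraries lie on the same side of the WT mean, beside 64.7% of all genes tested.

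In the small subunit Mrps12, at the decoding centre, had 29.2 and 32.6 RPKM in WT and 29.1 and 22.4 RPKM in KO. KO replicate 2 was far below the other 3 libraries, and KO replicate 1 close to the lower WT library (log2 -0.26 ± 0.14 SE, adjusted p = 0.542 in limma). Mrps2 had 10.2 and 9.66 RPKM in WT and 10.3 and 9.34 RPKM in KO (log2 -0.02 ± 0.09 SE). Mrps5, which helps form the messenger RNA entry channel, had 5.82 and 5.33 RPKM in WT and 5.30 and 4.86 RPKM in KO (log2 -0.11 ± 0.09 SE). Mrps24, the counterpart of bacterial S3, had 23.7 and 25.0 RPKM in WT and 24.6 and 18.1 RPKM in KO (log2 -0.20 ± 0.15 SE). Only Mrps12 and Mrps5 among these did not overlap, and in Mrps24 the difference came from KO replicate 2. Mrps11 showed the same arrangement, with 5.42 and 4.40 RPKM in WT and 5.10 and 3.49 RPKM in KO (log2 -0.17 ± 0.18 SE).

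The small-subunit genes with the largest positive differences on the log2(RPKM + 1) scale were Mrps21 and Mrps6, both counterparts of bacterial proteins of the same number, then Mrps9 and Mrps27. By the plain ratio of RPKM the order was Mrps6 (1.24), Mrps21 (1.20), Mrps18c (1.15), Mrps9 (1.13) and Mrps27 (1.12). Mrps21 (chr3:95862634-95871519, minus strand), whose promoter is shown above, had 33.4 and 34.3 RPKM in WT and 37.9 and 43.0 RPKM in KO (log2 0.25 ± 0.09 SE, unadjusted p = 0.045, adjusted p = 0.415 in limma). Mrps6 had 3.70 and 3.84 RPKM in WT and 4.90 and 4.42 RPKM in KO (log2 0.25 ± 0.10 SE, adjusted p = 0.426 in limma). Both genes were higher in each KO library, but Mrps6 shares 159 exonic bases on its own strand with Slc5a3, so the source of its reads is uncertain. Mrps9 had 4.27 and 4.71 RPKM in WT and 5.20 and 4.96 RPKM in KO (log2 0.15 ± 0.09 SE). Mrps27, a pentatricopeptide repeat protein, had 6.04 and 6.40 RPKM in WT and 6.85 and 7.11 RPKM in KO (log2 0.14 ± 0.08 SE). Neither overlapped between the genotypes. Mrps21, Mrps6, Mrps9 and Mrps27 were picked for large differences, so a lack of overlap is largely set by that choice.

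Mrps22 and Mrps34, in which human mutations cause mitochondrial disease, had no common direction. Mrps22 had 4.45 and 4.58 RPKM in WT and 4.34 and 5.45 RPKM in KO (log2 0.09 ± 0.12 SE). Mrps34 had 3.53 and 4.32 RPKM in WT and 3.83 and 3.28 RPKM in KO (log2 -0.11 ± 0.13 SE). The genotypes overlapped in both. Mrps35, a protein of the small subunit of mitochondria alone, had 2.13 and 2.46 RPKM in WT and 1.96 and 1.99 RPKM in KO (log2 -0.15 ± 0.12 SE), with both KO libraries lower.

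Relatives of bacterial S18 are encoded by 3 genes, of which Mrps18b and Mrps18c lie in the small subunit and Mrps18a in the large subunit despite its symbol. Mrps18a had 7.26 and 7.04 RPKM in WT and 6.96 and 5.83 RPKM in KO (log2 -0.14 ± 0.11 SE). Mrps18b had 8.54 and 6.57 RPKM in WT and 6.86 and 6.37 RPKM in KO (log2 -0.16 ± 0.13 SE). Mrps18c had 1.21 and 1.59 RPKM in WT and 1.89 and 1.32 RPKM in KO (log2 0.12 ± 0.18 SE), on 18 to 32 reads. Mrps18a alone did not overlap between the genotypes. Mrps30, likewise a large-subunit protein by its place in the structure, had 1.59 and 1.91 RPKM in WT and 1.11 and 1.47 RPKM in KO, with both KO libraries lower (log2 -0.27 ± 0.15 SE, adjusted p = 0.562 in limma). Mrps36 is now known as a component of the alpha-ketoglutarate dehydrogenase complex. Without Mrps18a, Mrps30 and Mrps36 the median of the other 26 Mrps symbols was -0.05.

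Some of the 38 genes that the rule for naming did not pick, such as Mrpl46 and Mrpl15, are given elsewhere for other features. The 38 genes lay between -0.18 and 0.07 on the log2 scale, 8 higher and 30 lower. Their mean levels ran from 3.24 to 25.4 RPKM. Both KO libraries lay below both WT libraries in 11 of them (28.9%, beside 25.0% of all genes); that 0 lay above is set by the rule for naming, which took the members with the largest differences.

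The KO libraries differed from each other within the small subunit. Relative to the WT mean, KO replicate 1 had a median log2 difference of -0.04 over the 77 genes and KO replicate 2 one of -0.09. For the Mrpl symbols it was -0.07 and -0.09. For the Mrps symbols it was 0.00 in KO replicate 1, with 14 higher and 15 lower, and -0.14 in KO replicate 2, with 9 higher and 20 lower. The small-subunit median thus rests on KO replicate 2: it was -0.0024 without that library and -0.14 without KO replicate 1. Without KO replicate 2 the median of all 77 genes was -0.04. Of the 77 genes 37 lay below the WT mean in both KO libraries and 11 above it in both. Across the 77 genes Spearman's rho between the deviations of the KO libraries was 0.10, although both were measured against the same WT mean.

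Other genes of mitochondrial gene expression are given next, and none of them passed an FDR of 0.05 in limma. In each list down to the transcription factors, the genes given with values are the 2 with the smallest limma p-values. A lack of overlap in them is thus largely set by that choice. Over all genes tested, both KO libraries lay below both WT libraries in 25.0% and above them in 19.7%. Of 5 mitoribosomal proteins under other symbols 4 were lower, with a median log2 difference of -0.07. The lowest was Gadd45gip1, at 3.10 and 3.90 RPKM in WT and 3.40 and 2.33 RPKM in KO, where the genotypes overlapped. Chchd1 had 19.8 and 21.8 RPKM in WT and 19.5 and 17.0 RPKM in KO, without overlap. Genes of mitoribosome assembly and rRNA modification were higher in 9 and lower in 17 of 26 tested (median -0.06). Mrm1, a methyltransferase of the large mitochondrial rRNA, had 4.51 and 4.78 RPKM in WT and 3.89 and 3.19 RPKM in KO (log2 -0.32 ± 0.11 SE, adjusted p = 0.399 in limma). Ngrn, needed for that rRNA, had 16.1 and 15.5 RPKM in WT and 13.2 and 13.6 RPKM in KO (log2 -0.22 ± 0.08 SE, adjusted p = 0.384 in limma). In both genes the KO libraries lay below the WT libraries.

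Of 14 mitochondrial translation factors tested 10 were higher and 4 lower (median 0.06). Oxa1l, which inserts new proteins into the inner membrane, had 13.5 and 14.9 RPKM in WT and 15.97 and 15.93 RPKM in KO. Tsfm, an elongation factor, had 6.86 and 5.92 RPKM in WT and 5.79 and 4.90 RPKM in KO. Neither overlapped. Of 20 mitochondrial aminoacyl-tRNA synthetases and related genes 7 were higher and 13 lower (median -0.04). Yars2, which charges tyrosine tRNA, had 5.69 and 5.62 RPKM in WT and 3.74 and 4.45 RPKM in KO (log2 -0.39 ± 0.10 SE, adjusted p = 0.316 in limma). Lars2, which charges leucine tRNA, had 4.15 and 4.19 RPKM in WT and 3.36 and 3.38 RPKM in KO (log2 -0.24 ± 0.09 SE, adjusted p = 0.411 in limma). These synthetase values did not overlap between genotypes.

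Of 11 genes of mitochondrial DNA transcription and upkeep 3 were higher and 8 lower (median -0.04). Mgme1, a mitochondrial DNA exonuclease, had 3.80 and 3.36 RPKM in WT and 2.91 and 3.10 RPKM in KO, and Polg2, a polymerase subunit, had 1.18 and 1.26 RPKM in WT and 0.892 and 1.03 RPKM in KO. Both lay lower without overlap. Of 8 tested transcription factors of nuclear mitochondrial genes 2 were higher and 6 lower (median -0.04). Pprc1, a coactivator of NRF1, had 8.27 and 8.16 RPKM in WT and 7.11 and 6.32 RPKM in KO (log2 -0.26 ± 0.09 SE, adjusted p = 0.392 in limma). Myc had 22.4 and 23.5 RPKM in WT and 20.2 and 17.3 RPKM in KO (log2 -0.28 ± 0.10 SE, adjusted p = 0.399 in limma). Both factors were lower in each KO library.

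Of 79 cytosolic ribosomal protein genes tested 13 were higher and 66 lower (median -0.08). Their medians in the single KO libraries were 0.03 in replicate 1 and -0.15 in replicate 2. Nuclear subunits of the respiratory chain and ATP synthase were higher in 45 and lower in 35 of 80 tested (median 0.01), with 64 higher and 16 lower in KO replicate 1 (median 0.06) and 38 higher and 42 lower in KO replicate 2 (median -0.01). The plot of these lists sets their members beside the mitoribosomal ones. No difference between lists was tested.

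**Figure D5:**
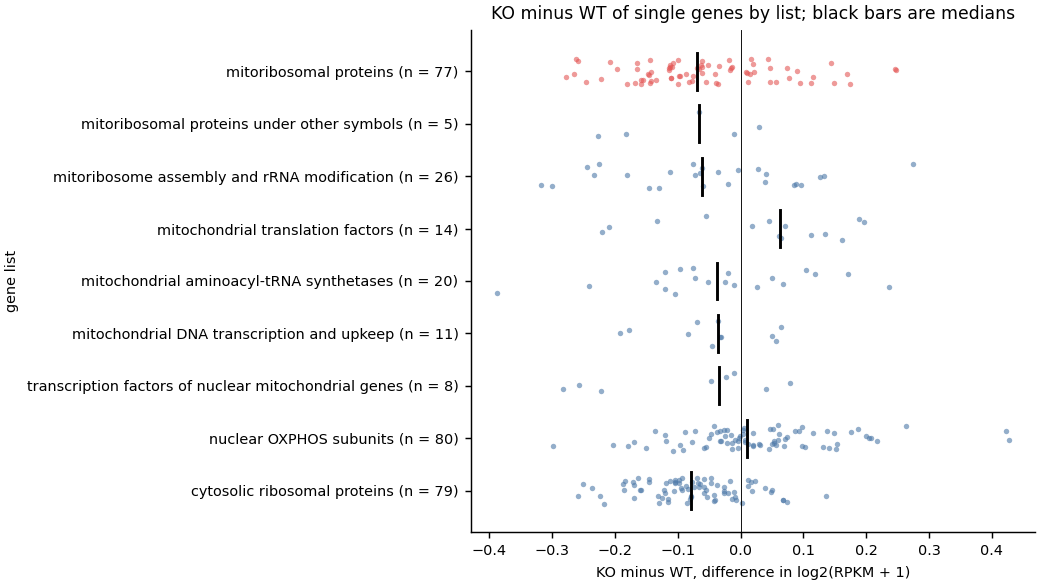
KO minus WT difference in log2(RPKM + 1) of each tested gene (points) in each list, with the list median as a black bar and the number tested in the label; the vertical scatter within a list has no meaning. Medians run from -0.08 for cytosolic ribosomal proteins to 0.06 for mitochondrial translation factors, with the mitoribosomal proteins at -0.07.

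The RNA core and the messages of the mitochondrial ribosome were measured in the same libraries. The small rRNA, mt-Rnr1, had 129 and 99.8 RPKM in WT and 101 and 178 RPKM in KO. The large rRNA, mt-Rnr2, had 190 and 151 RPKM in WT and 147 and 171 RPKM in KO. Both overlapped between genotypes, and the labels do not say whether rRNA was removed or messenger RNA selected. Of 12 mitochondrial messages 8 were higher and 4 lower (median 0.13). Relative to the WT mean, 6 were higher and 6 lower in KO replicate 1 (median -0.01), and 8 higher and 4 lower in KO replicate 2 (median 0.28). Those lower were mt-Co2, mt-Co3, mt-Atp6 and mt-Nd3. For example, mt-Co3 had 28.3 and 29.4 RPKM in WT and 15.3 and 15.4 RPKM in KO (log2 -0.87 ± 0.08 SE, adjusted p = 0.124 in limma). These messages were listed far below others of the same genome, such as mt-Co1 with 11786 and 11431 RPKM in WT and 11368 and 14566 RPKM in KO. A low listing was not particular to the lower messages. Among the higher ones, mt-Nd4l had 3.16 and 1.92 RPKM in WT and 2.79 and 2.73 RPKM in KO (log2 0.11 ± 0.19 SE). The values of mt-Nd3 rest on 2 to 12 reads.

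Markers of macrophages, endothelium and myoid cells had lower values in KO. Macrophage markers were lower in 8 of 8, with a median log2 difference of -0.37 (summed 378 and 292 RPKM in WT, 202 and 296 RPKM in KO). Relative to the WT mean their median was -0.61 in KO replicate 1, with 8 lower, and -0.09 in KO replicate 2, with 6 lower and 2 higher, and 3 of the 8 did not overlap between genotypes. Of 8 endothelial markers 4 were tested and were lower, with a median of -0.66 (summed 30.7 and 34.0 RPKM in WT, 21.5 and 17.1 RPKM in KO). Of 7 myoid and smooth muscle markers 5 were tested and were lower, with a median of -0.62 (summed 221 and 252 RPKM in WT, 189 and 174 RPKM in KO). No marker of these lists was at 0 in all libraries. Of 8 germ cell markers 2 were tested and were higher in KO without overlap, with a median of 0.68. Their mean levels were low, at 0.65 and 0.75 RPKM. The germ cell markers summed to 2.24 and 1.25 RPKM in WT and 3.87 and 3.48 RPKM in KO, and Acrv1 was at 0 in all but WT replicate 1. Of 6 Sertoli cell markers 0 were tested (summed 2.29 and 2.14 RPKM in WT, 2.02 and 2.39 RPKM in KO). The part of these cells in the values of the mitoribosomal genes was not tested.

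Neighbours that start close to a mitoribosomal gene on the opposite strand could be tested in 26 of 32 cases. In 15 of the 26 the neighbour lay on the same side of WT as the mitoribosomal gene. The pair of Mrps11 and Mrpl46 enters these 26 cases from both sides. The 24 tested neighbours that are not themselves mitoribosomal were higher in 6 and lower in 18 cases (median log2 difference -0.08). Since most members and most neighbours were lower, many pairs would lie on the same side without any link, and a link was not tested. Sars2, beside Mrps12, had 3.62 and 2.75 RPKM in WT and 3.33 and 2.89 RPKM in KO, with overlap where Mrps12 had none. Ptcd2, beside Mrps27, had 13.8 and 13.2 RPKM in WT and 15.9 and 13.3 RPKM in KO, with overlap. Mrpl46 had 9.19 and 8.49 RPKM in WT and 7.93 and 10.01 RPKM in KO, low in KO replicate 1 and high in KO replicate 2, whereas its partner Mrps11 was lowest in KO replicate 2.

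Exons of 29 members overlap those of another gene, in 25 cases on the opposite strand and in 4 on the same strand. Since the labels do not say whether the counting used strand, reads of such pairs cannot be told apart. Among the genes with values given, this holds for Mrpl3, Mrpl10, Mrpl12, Mrpl13, Mrpl24, Mrpl44, Mrpl47, Mrpl48, Mrpl58, Mrps6, Mrps11, Mrps18b, Mrps18c, Mrps24, Mrps27, Mrps34 and Mrpl46. In Mrpl12 the overlap is 200 bases, in Mrps24 226 bases on the same strand, and in Mrps34 1309 bases. The median log2 difference was -0.07 for the 48 members without such overlap and -0.05 for the 29 with it.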

How the data were processed

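Each deposited table gives 1 value for each of 27357 Ensembl gene IDs in 1 library, with no unit in its header. The values deposited by the authors were read as RPKM: multiplied by the summed exonic length in GENCODE M21, 90.3% to 90.6% of the values above 0 were whole reads within 0.01 of a read. Per the submitters' processing notes the genome build was mm9; aligner, counter and annotation: not given in the sources used here. The lengths and positions come from GRCm38, and 51 IDs did not match. Reads were recovered as whole in all libraries for 70 of the 77 members. No source says whether single reads or pairs were counted.

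Symbols and coordinates were taken from GENCODE M21. The fit took the 12391 genes that reached 1 RPKM in 2 or more libraries, and KO was compared with WT on log2(RPKM + 1) with limma 3.58.1 in R 4.3.3 (genotype alone, all 4 libraries, moderated variances with a trend on level, 2-sided tests, an FDR of 0.05 by Benjamini-Hochberg over all genes tested, 2 residual and 3.08 prior degrees of freedom). The pseudocount of 1 understates the differences of low genes. Python 3.11.15 with SciPy 1.17.1, pandas 2.3.3, Matplotlib 3.10.9 and NumPy 2.4.6 served for tables and plots.

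Members and gene lists were chosen with earlier results of these data known. Named members are the 4 highest and 3 lowest by mean level and the 4 largest differences each way in each subunit, the 3 smallest p-values each way, and a list of genes of known role; in other lists, the 2 smallest p-values. Neighbours on the opposite strand, the mitochondrial messages beside mt-Co2 and mt-Co3, and Mrps36 were named after their values were seen. Alternatives were a pseudocount of 0.1, a filter at 5 RPKM or none, quantile normalization, trimmed-mean rescaling, no trend, voom on recovered reads, a replicate block and each library left out. The scale by principal transcript was chosen after the data were seen, as was the division into bacterial and mitochondrial proteins.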

Additional observations from a re-analysis of the deposited data

How the results depend on the processing

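Precision is limited by 2 libraries a genotype and by 18 to 1195 reads behind the single values of members. Where a library was left out, the lone library of that genotype was assumed to vary like the others. The count of members called at an FDR of 0.05 was 0 under each of the 12 alternatives run. The voom fit covered the 70 members whose reads were recovered, and the filter at 5 RPKM kept 59. Mrps30 was at -0.27 on log2(RPKM + 1), -0.42 with a pseudocount of 0.1 and -0.43 with voom, which made it the lowest member under both. At an unadjusted p under 0.05, where limma gave 1 higher and 3 lower members, voom gave 0 and 0, quantile normalization 3 and 1, the fit without trend 0 and 1, no filter and a pseudocount of 0.1 each 2 and 3, and trimmed-mean rescaling 2 and 2. Without WT replicate 1 the counts were 0 and 1, without WT replicate 2 they were 0 and 0, without KO replicate 1 they were 2 and 10, and without KO replicate 2 they were 1 and 4.

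The median log2 difference of all members stayed below 0 throughout, between -0.0906 and -0.0440 with single libraries left out. For the Mrpl symbols that range was -0.0874 to -0.0593, and quantile normalization gave -0.0509. For the Mrps symbols the range was -0.137 to -0.00237. The titles carry no common replicate numbers; a replicate block taken from the suffix that 1 title of each genotype carries left the medians at -0.0698, -0.0769 and -0.0632, and the counts at an unadjusted p under 0.05 at 0 and 0.

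Of 39 named members 20 had the opposite sign under at least one alternative, while 13 that were lower and 6 that were higher kept their sign in all that were run. Mrpl44 was at 0.000932 after quantile normalization and 0.0017 after trimmed-mean rescaling, which put Mrps2 at 7.02e-05. With single libraries left out, the log2 differences of those members ranged from -0.00425 to 0.157 for Mrpl11, -0.183 to 0.00997 for Mrpl20, -0.166 to 0.0429 for Mrpl28, -0.0381 to 0.149 for Mrpl34, -0.206 to 0.0142 for Mrpl4, -0.0480 to 0.386 for Mrpl41, -0.0978 to 0.0656 for Mrpl44, -0.0230 to 0.0658 for Mrpl47, -0.0552 to 0.149 for Mrpl48 and -0.154 to 0.193 for Mrpl54. They ranged from -0.0994 to 0.0302 for Mrpl58, -0.389 to 0.0528 for Mrps11, -0.325 to 0.00856 for Mrps18b, -0.0448 to 0.277 for Mrps18c, -0.0803 to 0.0450 for Mrps2, -0.0457 to 0.226 for Mrps22, -0.234 to 0.113 for Mrps23, -0.408 to 0.0155 for Mrps24, -0.0391 to 0.264 for Mrps28 and -0.226 to 0.00464 for Mrps34. The cause of these sign changes was not tested.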

Other observations

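Of the pseudogenes of members, Mrpl48-ps had 0.681 and 0.199 RPKM in WT and 1.40 and 1.03 RPKM in KO, above both WT libraries in both KO libraries. Its parent gene Mrpl48 had 2.74 and 2.95 RPKM in WT and 2.70 and 3.26 RPKM in KO. Mrpl23-ps1 had 0.249 and 1.31 RPKM in WT and 0.330 and 0.262 RPKM in KO. Mrps36-ps1 was at 0.165 RPKM in KO replicate 2 and listed at 0 elsewhere, and Mrps36-ps2 was listed at 0 throughout. How the counting assigned reads shared by a gene and its near-identical copy is not stated, so the values of Mrpl48, Mrpl23 and Mrps36 are uncertain in that respect.

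The most even and the least even members over the 4 libraries were far apart. Mrpl24, of the large-subunit exit tunnel region, had a coefficient of variation of 2.12%, Mrps10 one of 2.64% and Mrps15 one of 2.64%. At the other end, Mrpl15 had 21.9%, with 3.56 and 3.80 RPKM in WT and 2.75 and 4.72 RPKM in KO, so that the KO libraries lay on either side of WT. Its values rest on 366 to 792 reads.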
